A study of Mus musculus with 6 samples.

Results

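The genes described here are 54 components of the machinery that copies and divides the genome, chosen by name as S-phase and G2/M genes: 24 act in DNA replication and 30 in mitosis. They are 54 of the 39017 genes in the count table, each matched one identifier, and all 54 passed the filter on low counts. They were measured by RNA sequencing in adherent cells cultured from the bone marrow of wild-type BALB/c mice, an inbred strain. The young group was 3 libraries from animals 3 weeks old, and the old group 3 libraries from animals more than 78 weeks old. All cultures were grown from crushed limb bones in the same serum-containing medium and are stated in the labels to carry F4/80 and CD169, surface proteins of resident macrophages. Whether each library had its own donor animal is not in the labels, and the p-values reflect library-to-library spread, which may be technical. The question is whether proliferation genes, and replication genes against mitotic genes, differed with the age of the donor.

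Cells that commit to division switch on their replication genes late in G1, when E2F transcription factors are released from RB-family proteins. The MCM helicase, loaded by CDC6 and CDT1, unwinds the origins, PCNA clamps the polymerases to the template, and ribonucleotide reductase, thymidylate synthase and thymidine kinase supply nucleotides. Mitotic genes peak later, under FOXM1 and the MuvB complex, and encode cyclins, kinases, motors and kinetochore proteins, some of which the anaphase-promoting complex then destroys. Resident macrophages can divide in culture, as can the stromal cells of marrow.

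Libraries held 34391206 to 43367734 counts. Levels are given as CPM, the counts scaled by the TMM-adjusted library size, with mean ± SD over n = 3 libraries. Adjusted p-values are from edgeR's quasi-likelihood test, adjusted by Benjamini-Hochberg over all 15567 genes tested, and "called" means an adjusted p under 0.05. Log2 fold changes are old minus young, with the SE. All 10 macrophage markers were detected in every library, but the cultures also held connective tissue transcripts. The summed level of 10 stromal markers was 31532 to 71787 CPM in the young and 23059 to 29421 CPM in the old libraries. That of 10 macrophage markers lay below it, at 7864 to 9882 CPM and 4552 to 4902 CPM. Most of the stromal sum was the collagens Col1a1, Col1a2 and Col3a1, and most of the macrophage sum was Lyz2. These sums do not give the shares of cells. Of the macrophage markers 9 were called lower in old libraries and 0 higher, and of 10 pan-leukocyte markers 6 were called lower. B-lineage markers (47.4 to 63.4 CPM in young, 101.0 to 116 CPM in old) and megakaryocyte markers (47.1 to 80.3 CPM, then 231 to 319 CPM) were called higher for 4 of 5 tested and 5 of 6 genes. Most of the B-lineage sum was Ebf1, which marrow stromal cells also express (42.7 to 60.3 CPM in young, 85.3 to 88.5 CPM in old). Of the stromal markers 2 were called lower and 1 higher, and young replicate 3 held the highest sum. Of 8 osteoblast markers, 5 were called lower and 1 higher, and of 7 endothelial and 7 neutrophil markers none was called (edgeR; 3 and 2 of them had an unadjusted p under 0.05). Of the erythroid markers only 1 was abundant enough to test, and it was not called. In bulk RNA, fewer cells of a type and less RNA per cell cannot be told apart. The part of these marker shifts in the member values was not tested.

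The promoters of the replication and mitotic members are shown first because the classes differed in the share of members holding each motif. The classes were set by name, and the motif search used no expression value. RefSeq promoter windows (GRCm38.p6, 250 bases before to 50 bases after the annotated start) were found for 45 of the 54 members. The motifs searched on both strands were the E2F site (TTTCCCGC, TTTGGCGC, TTTCGCGC or TTTGCCGC), the cell cycle genes homology region or CHR element (TTTGAA or TTCGAA), to which the MuvB complex binds, and the CCAAT box (CCAAT). Matches to the E2F site on opposite strands can overlap each other. The E2F site was found in 8 of 21 replication windows (38.1%) and 1 of 24 mitotic ones (4.17%), against 2.6% of all 27025 genes with a window and 4.59% of those that were tested. CHR was found in 5 of 21 replication members (23.8%) and 19 of 24 mitotic members (79.2%), against 21.7% of all genes and 16.7% of tested ones. The CCAAT box was found in 14 of 21 and 20 of 24, where 41.1% of all genes had it. A match is a description of letters and not a site shown to be used.

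The following stretches lie upstream of the annotated starts, and capitals mark E2F or CHR matches. Bases inside the gene's GENCODE span were left out where a stretch crossed into it. The Cdc6 stretch and the downstream E2f2 stretch lie wholly within the span of their gene and were not trimmed, so they may hold exon bases. The first 3 are replication members with E2F matches: Mcm5 (chr8:75109349-75109508, plus strand), Mcm6 (chr1:128359706-128359865, minus strand) and Cdc6 (chr11:98907991-98908150, plus strand).

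Mcm5: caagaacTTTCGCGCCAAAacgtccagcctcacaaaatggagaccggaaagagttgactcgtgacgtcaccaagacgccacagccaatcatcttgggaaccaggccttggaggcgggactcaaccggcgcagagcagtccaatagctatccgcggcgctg

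Mcm6: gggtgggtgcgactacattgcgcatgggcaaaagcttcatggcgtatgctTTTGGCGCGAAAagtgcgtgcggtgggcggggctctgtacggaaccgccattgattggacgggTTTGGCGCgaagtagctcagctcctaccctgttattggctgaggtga

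Cdc6: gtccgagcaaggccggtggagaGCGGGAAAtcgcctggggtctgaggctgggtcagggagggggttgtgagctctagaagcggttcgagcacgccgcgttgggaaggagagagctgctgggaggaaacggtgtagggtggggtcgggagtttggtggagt

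The next 3 are mitotic members with a CHR match: Cdc20 (chr4:118437353-118437503, minus strand), Cdk1 (chr10:69352939-69353072, minus strand), which was the 1 mitotic member that also held an E2F site, and Kif11 (chr19:37376222-37376381, plus strand).

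Cdc20: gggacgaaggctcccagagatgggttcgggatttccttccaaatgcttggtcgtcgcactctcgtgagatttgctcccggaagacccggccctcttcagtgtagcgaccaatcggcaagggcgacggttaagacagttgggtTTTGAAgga

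Cdk1: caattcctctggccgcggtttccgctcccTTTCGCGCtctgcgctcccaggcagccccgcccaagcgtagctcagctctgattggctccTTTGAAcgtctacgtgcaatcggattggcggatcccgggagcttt

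Kif11: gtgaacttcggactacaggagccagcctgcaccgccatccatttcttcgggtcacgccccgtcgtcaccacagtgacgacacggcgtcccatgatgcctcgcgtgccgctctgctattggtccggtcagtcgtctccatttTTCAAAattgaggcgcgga

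The last are replication members whose RNA was called different between ages. Rrm2 (chr12:24708094-24708240, plus strand) held neither motif in its window. E2f2 had 2 RefSeq starts, and the stretch before the upstream one (chr4:136172114-136172273, plus strand) held no match, although an E2F match lies after that start, outside the stretch shown, while that before the downstream one (chr4:136180622-136180781, plus strand) held a CHR match.

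Rrm2: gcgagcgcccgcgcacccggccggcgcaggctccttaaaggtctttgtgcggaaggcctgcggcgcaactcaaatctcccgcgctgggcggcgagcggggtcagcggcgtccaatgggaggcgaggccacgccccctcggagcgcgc

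E2f2 upstream start: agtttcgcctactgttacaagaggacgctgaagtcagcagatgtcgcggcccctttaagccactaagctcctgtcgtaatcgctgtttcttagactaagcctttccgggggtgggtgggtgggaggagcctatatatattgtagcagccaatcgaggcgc

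E2f2 downstream start: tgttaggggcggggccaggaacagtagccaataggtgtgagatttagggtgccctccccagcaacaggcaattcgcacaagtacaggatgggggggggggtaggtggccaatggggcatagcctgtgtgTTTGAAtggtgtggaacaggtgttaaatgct

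**Figure D1:**
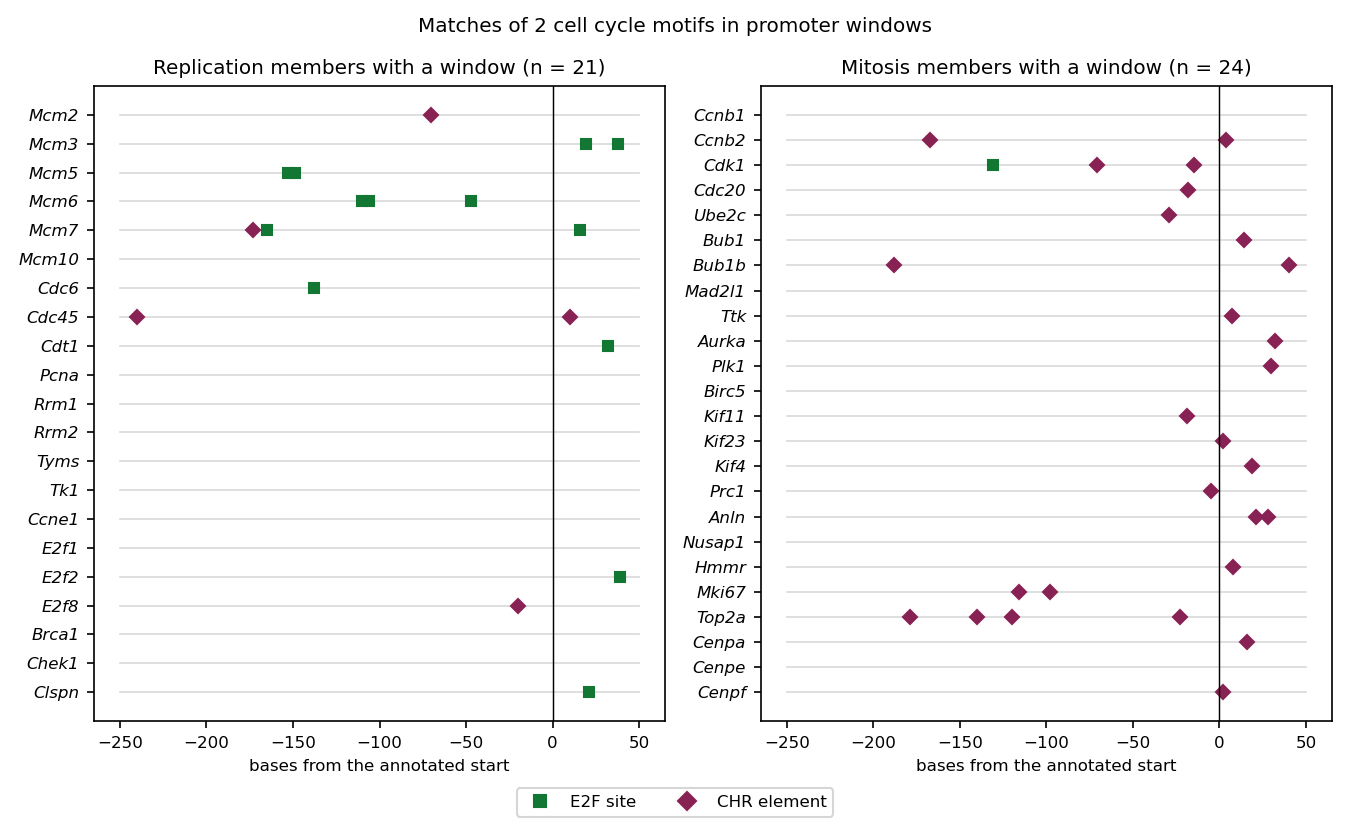
Matches of the E2F site (squares) and the CHR element (diamonds) in the first-listed RefSeq promoter window of 21 replication and 24 mitotic members, by the position of the match's first base from the annotated start (x axis, bases). E2F matches fall mostly in the replication panel and CHR matches mostly in the mitotic panel, where many lie within 50 bases of the start.

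Proliferation genes were expressed in all 6 libraries, and most members differed little between ages. Of the 54 members, 6 were called, 5 higher and 1 lower in old libraries. That is 11.1% of the members, against 10.5% of all genes tested (5.84% higher and 4.70% lower), so the share called was close to the background. The intervals of the fold change were narrow for most members: the 95% interval lay within 1.5-fold of no change for 39 of the 54, and within 2-fold for 50. Per kilobase of annotated exon, members ran from 0.683 CPM (Clspn) to 90.9 CPM (Rrm2). The 54 together took 0.365% to 0.412% of counts in young and 0.410% to 0.445% in old libraries. Their summed level was 3783 to 4032 CPM in young and 4116 to 4398 CPM in old libraries. The means of the summed level differed 1.10-fold, without overlap, but the shares of counts overlapped between ages.

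**Figure D2:**
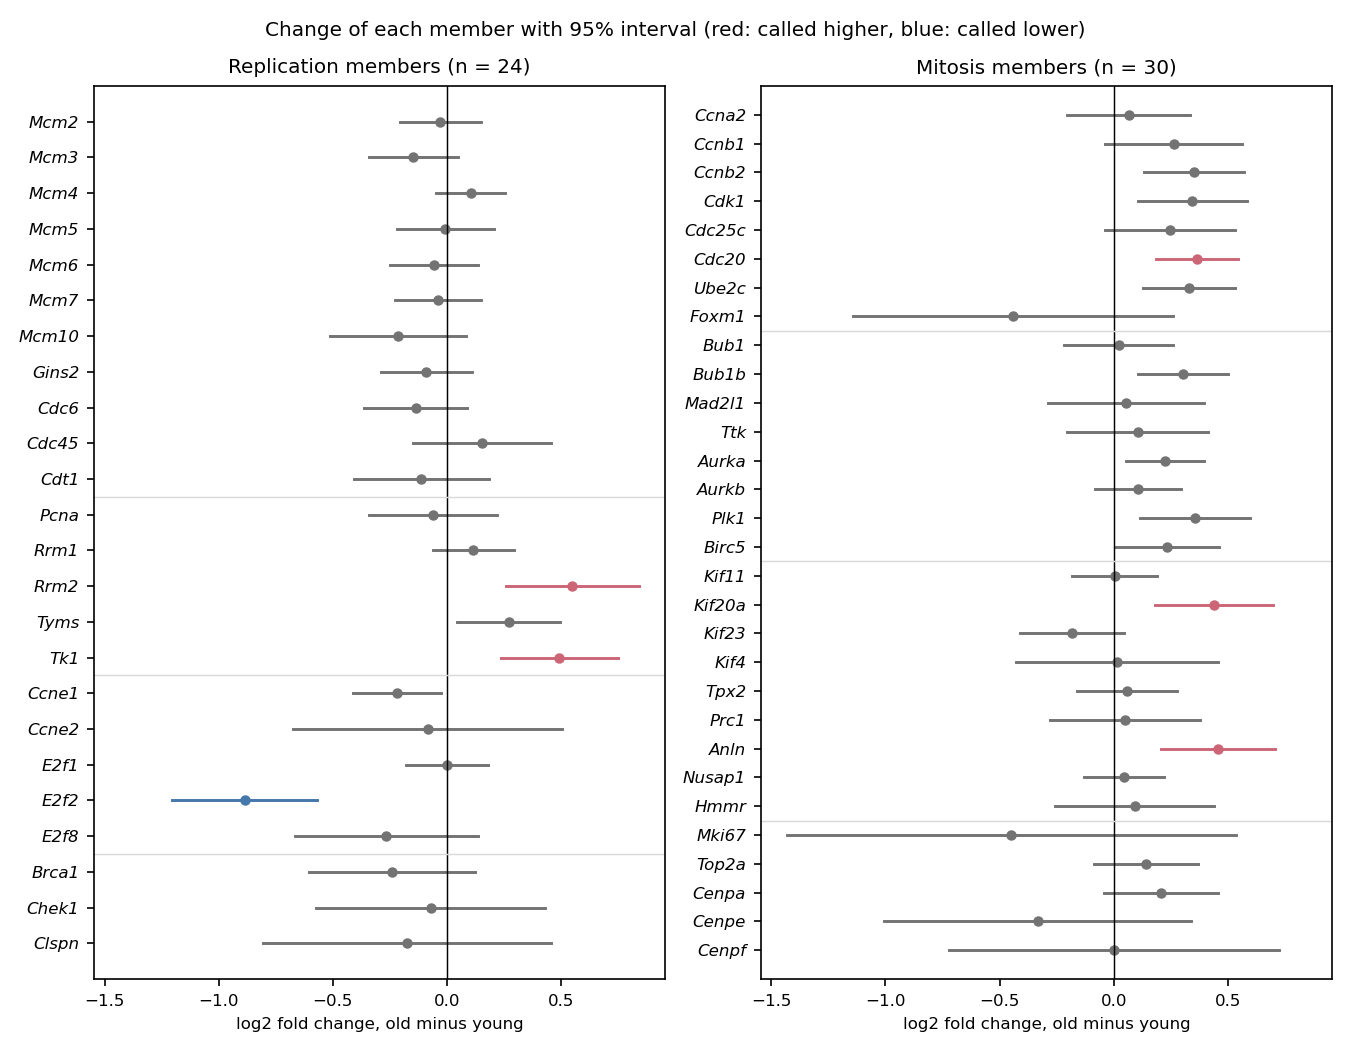
Log2 fold change (old minus young, x axis) of the 24 replication members and 30 mitotic members with the 95% interval from the edgeR fit, grouped by role from top to bottom. Rrm2, Tk1, Cdc20, Kif20a and Anln (red) were called higher, E2f2 (blue) lower, and the other 48 (grey) were not called.

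The MCM helicase was level between the ages. Mcm2 had 132, 147 and 145 CPM in young replicates 1 to 3 and 142, 141 and 134 CPM in old replicates 1 to 3. Its log2 fold change was -0.03 with SE 0.07 and a 95% interval from -0.20 to 0.15 (adjusted p = 0.878, edgeR). The young and old values of this helicase subunit overlapped. Mcm6, the most abundant of the helicase and licensing members per kilobase, had 199.8, 220.2 and 202 CPM in the young and 204, 209 and 185 CPM in the old libraries. Of the 6 subunits of the hexamer, Mcm2 to Mcm7, log2 fold changes ran from -0.15 (Mcm3) to 0.10 (Mcm4), none was called, and every interval lay within 1.5-fold of no change. Mcm5 and Mcm7 had -0.01 and -0.04. Mcm4 was the 1 subunit whose ranges did not overlap, at 132, 134 and 134 CPM in the young and 143, 146 and 140.2 CPM in the old libraries, a 1.07-fold difference (adjusted p = 0.402, edgeR).

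The other licensing and helicase-activating factors were also not called. Cdc6, which loads the helicase, was 31.2 ± 1.91 CPM in the young and 28.4 ± 1.58 CPM in the old libraries, and Cdt1, its partner, 40.0 ± 5.65 and 37.0 ± 2.99 CPM. Cdc45, a helicase cofactor, was 21.2 ± 2.99 and 23.6 ± 1.37 CPM. Mcm10, which helps start the fork, and Gins2, a subunit of the GINS cofactor, had old values below all young values, with log2 fold changes of -0.21 and -0.09 (adjusted p = 0.373 and 0.606, edgeR). Gins2 shares 67.3% of its exon length with Gse1, and counts were not stated to use strand, so its value is uncertain. In all, 0 of 11 helicase and licensing members were called by edgeR, where 10.5% of all genes tested were. An unadjusted p under 0.05 was found for 0 of them.

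The replication members called higher were 2 genes of deoxynucleotide supply. Of the 24 replication members 8.33% were called higher and 4.17% lower, against 5.84% and 4.70% of all genes tested. These shares were close to the background. Rrm2, the regulatory subunit of ribonucleotide reductase, had 202, 231 and 181 CPM in young replicates 1 to 3 and 305, 332 and 261 CPM in old replicates 1 to 3. Every old value was above every young value, with replicate 2 highest and replicate 3 lowest in both ages. The change was 1.46-fold (log2 0.55, SE 0.12, adjusted p = 0.0340, edgeR). Tk1, the thymidine salvage kinase, had 44.4, 50.5 and 45.2 CPM in the young and 69.9, 69.9 and 57.5 CPM in the old libraries, a 1.41-fold rise (log2 0.49, SE 0.11, adjusted p = 0.0320, edgeR), again without overlap. The Rrm2 call was lost without young replicate 1, old replicate 1 or old replicate 2 (adjusted p up to 0.131), and the Tk1 call without those or without young replicate 2 (adjusted p up to 0.128).

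Rrm2 lies on chromosome 12 at 24708241 to 24714146 and Tk1 on chromosome 11 at 117815526 to 117826092 (mm10), and both are protein-coding. Tyms, thymidylate synthase, had 56.2, 55.5 and 48.1 CPM in the young and 67.6, 65.1 and 60.2 CPM in the old libraries. Its values did not overlap, but it was not called (log2 0.27, SE 0.10, adjusted p = 0.139, edgeR). Rrm1, the catalytic subunit that pairs with the Rrm2 product, was 397 ± 25.0 CPM in the young and 430.5 ± 7.72 CPM in the old libraries (log2 0.12, interval -0.06 to 0.29). Pcna, the sliding clamp, had a log2 fold change of -0.06 (interval -0.34 to 0.22).

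E2f2, an activating E2F factor, was the 1 member called lower. It had 15.9, 19.3 and 15.2 CPM in young replicates 1 to 3 and 8.58, 9.40 and 9.27 CPM in old replicates 1 to 3, so each old library was well below the lowest young one. The fold was 1.85 (log2 -0.89, SE 0.14, interval -1.20 to -0.57, adjusted p = 0.00848, edgeR). It was the largest change in size among the 54 members, and the 1 call that held on leaving out each library in turn (adjusted p up to 0.0478). E2f2 lies on chromosome 4 at 136172394 to 136196057 (mm10). The related activator E2f1 was level, at 58.8, 60.03 and 56.7 CPM in the young and 56.9, 60.2 and 58.5 CPM in the old libraries (log2 0.00, interval -0.18 to 0.18). E2f8, an E2F repressor, had a log2 fold change of -0.26 (adjusted p = 0.421, edgeR).

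The E-type cyclins, which drive CDK2 at the start of S phase, were not called. Ccne1 had 54.3, 51.9 and 51.8 CPM in the young and 44.7, 48.1 and 43.1 CPM in the old libraries, without overlap (log2 -0.22, SE 0.08, adjusted p = 0.163, edgeR). Ccne2 had 53.5, 57.7 and 28.5 CPM in the young and 48.1, 45.0 and 38.9 CPM in the old libraries, with young replicate 3 the lowest of the 6. Ccne2 shares 17.4% of its exon length with Ints8. The checkpoint members were low. Chek1, a kinase that guards stalled forks and the most abundant of the 3 per kilobase, had 12.04, 8.94 and 6.75 CPM in the young and 8.99, 8.88 and 8.53 CPM in the old libraries. Brca1, a repair factor, and Clspn, an activator of the Chek1 product, had log2 fold changes of -0.24 and -0.17, with intervals from -0.60 to 0.12 and from -0.81 to 0.46.

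**Figure D3:**
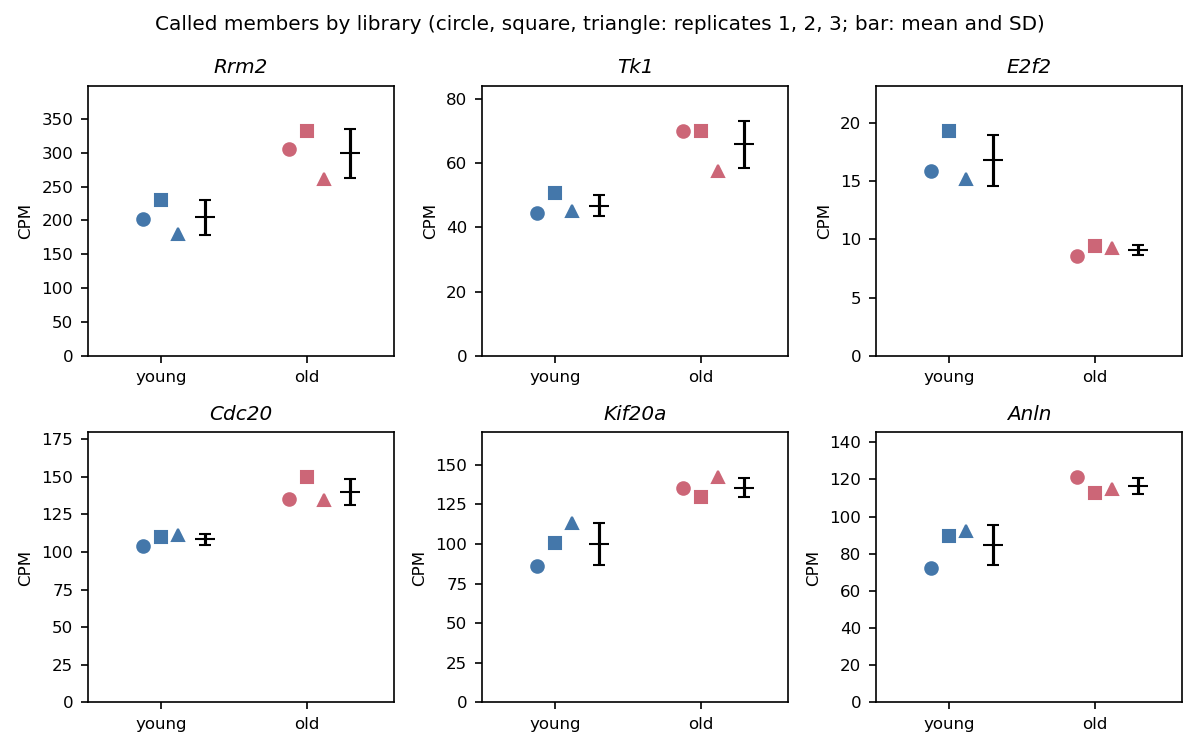
CPM (y axis, from 0) of the 6 called members in each young (blue) and old (red) library, with the mean and SD in black (n = 3 per age). In all 6 panels the young and old values do not overlap, and only E2f2 is lower in old libraries.

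Of the mitotic members, 3 were called, all higher, and the remaining 27 were not. Called higher were thus 10% of them, against 5.84% of all genes, and called in either direction 10%, against 10.5%. Cdc20, which activates the anaphase-promoting complex, had 104, 109.8 and 111 CPM in the young and 135, 149.6 and 134 CPM in the old libraries, a 1.29-fold rise (log2 0.37, SE 0.08, adjusted p = 0.0265, edgeR). Kif20a, a kinesin of the central spindle, had 86.3, 100.4 and 113 CPM in the young and 135, 129.5 and 142 CPM in the old libraries, 1.36-fold (adjusted p = 0.0474, edgeR). Anln, the actin-binding scaffold of the cleavage furrow, had 72.4, 89.6 and 92.2 CPM in the young and 121, 113 and 115 CPM in the old libraries, 1.37-fold (adjusted p = 0.0382, edgeR). For all 3 genes the old values lay above the young ones. Each of these 3 calls was lost on leaving out any library but young replicate 3 (the highest adjusted p was 0.118, 0.159 and 0.145), and that of Kif20a also without the low-count filter (adjusted p = 0.0546). All 3 were also lost in a fit with a block for replicate number. Kif20a shares 29.3% of its exon length with Cdc23, so part of its count may be Cdc23 reads. Cdc20 lies on chromosome 4 at 118432901 to 118437352, and Anln on chromosome 9 at 22332012 to 22389188 (mm10).

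Several regulators of mitotic entry and exit had old values above the young ones but were not called. Ccnb2, a mitotic cyclin, had 71.1, 75.2 and 63.7 CPM in the young and 95.3, 88.1 and 84.7 CPM in the old libraries (log2 0.35, SE 0.09, adjusted p = 0.0582, edgeR). Ube2c, the ubiquitin-conjugating enzyme of the anaphase-promoting complex, had 60.7, 62.6 and 64.2 CPM in the young and 72.2, 83.8 and 79.6 CPM in the old libraries (log2 0.33, adjusted p = 0.0535, edgeR). Ube2c shares 22.8% of its exon length with Tnnc2. Cdk1, the kinase that drives mitosis, went from 63.6 ± 6.04 to 80.7 ± 5.94 CPM (log2 0.34, adjusted p = 0.0817, edgeR). The ranges of these 3 genes did not overlap between ages, nor did those of Cdc25c, the phosphatase that activates CDK1 (log2 0.25, adjusted p = 0.277, edgeR).

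Not every gene at mitotic entry shared this. Ccna2, the S-phase and G2 cyclin, was 165 ± 19.2 and 173 ± 17.2 CPM, and Ccnb1 110.5 ± 16.0 and 133 ± 13.5 CPM, with log2 fold changes of 0.07 and 0.26 (adjusted p = 0.797 and 0.271, edgeR). Foxm1, the transcription factor of the mitotic genes, had 36.1, 28.9 and 49.7 CPM in the young and 40.8, 22.6 and 21.0 CPM in the old libraries. Its values overlapped and its log2 fold change of -0.44 had an interval from -1.14 to 0.26.

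All 8 mitotic kinase and checkpoint members had positive log2 fold changes (48.5% of all genes tested did), and 5 had old values above the young without overlap (15.9% of all genes). None was called by edgeR, although 4 had an unadjusted p under 0.05. Plk1, a kinase of mitotic entry and the most abundant of them per kilobase, had 94.7, 102 and 116 CPM in the young and 122, 141 and 138 CPM in the old libraries (log2 0.36, SE 0.10, adjusted p = 0.0741, edgeR). Bub1b, a subunit of the checkpoint complex, had 63.0, 69.5 and 73.2 CPM in the young and 83.6, 86.4 and 83.9 CPM in the old libraries (log2 0.30, adjusted p = 0.0668, edgeR). The lowest old value was above the highest young value for both. Aurka, the centrosome kinase, went from 70.7 ± 1.94 to 82.5 ± 2.19 CPM and Birc5, survivin, from 77.4 ± 6.59 to 91.0 ± 6.62 CPM (adjusted p = 0.107 and 0.202, edgeR). The checkpoint genes Bub1, Mad2l1 and Ttk overlapped between ages, with log2 fold changes of 0.02, 0.05 and 0.10. Aurkb, the kinase of the chromosomal passenger complex, had 0.11.

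The other motors and spindle proteins were not called. Kif11, the motor that separates spindle poles, had 46.6, 51.1 and 49.7 CPM in the young and 49.4, 48.2 and 50.2 CPM in the old libraries (log2 0.00, interval -0.18 to 0.19). Nusap1, a microtubule bundler, had log2 0.04, with its old values above the young ones, and Tpx2, which activates the Aurka kinase on the spindle, 0.06. Prc1, a midzone bundler, Kif4, a chromosome-associated motor, and Hmmr, a spindle-assembly protein, overlapped between ages, with 0.05, 0.02 and 0.09. Their intervals were wider, from -0.28 to 0.38, from -0.43 to 0.46 and from -0.26 to 0.44. Kif23, a motor of the cytokinetic midzone, was the 1 mitotic member whose old values all lay below the young ones (38.5 ± 1.58 and 33.9 ± 2.93 CPM, adjusted p = 0.315, edgeR).

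The chromosome and kinetochore members showed no call, and several differed more within an age than between ages. Top2a, the topoisomerase that untangles sister chromatids and the most abundant of them per kilobase, had 93.3, 95.03 and 112 CPM in the young and 105, 109 and 117 CPM in the old libraries (log2 0.14, adjusted p = 0.446, edgeR). Mki67, the proliferation marker Ki-67, had 9.68, 11.4 and 30.02 CPM in the young and 14.3, 10.4 and 12.7 CPM in the old libraries. Young replicate 3 alone was high, and the interval of the log2 fold change ran from -1.43 to 0.53. Cenpf and Cenpe, large kinetochore proteins, had 17.9 and 19.4 CPM in young replicate 3 against 8.28 to 9.14 and 9.25 to 12.1 CPM in the other young libraries. Cenpa, the centromeric histone, was lowest in young replicate 3 among the young libraries (47.2 CPM).

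**Figure D4:**
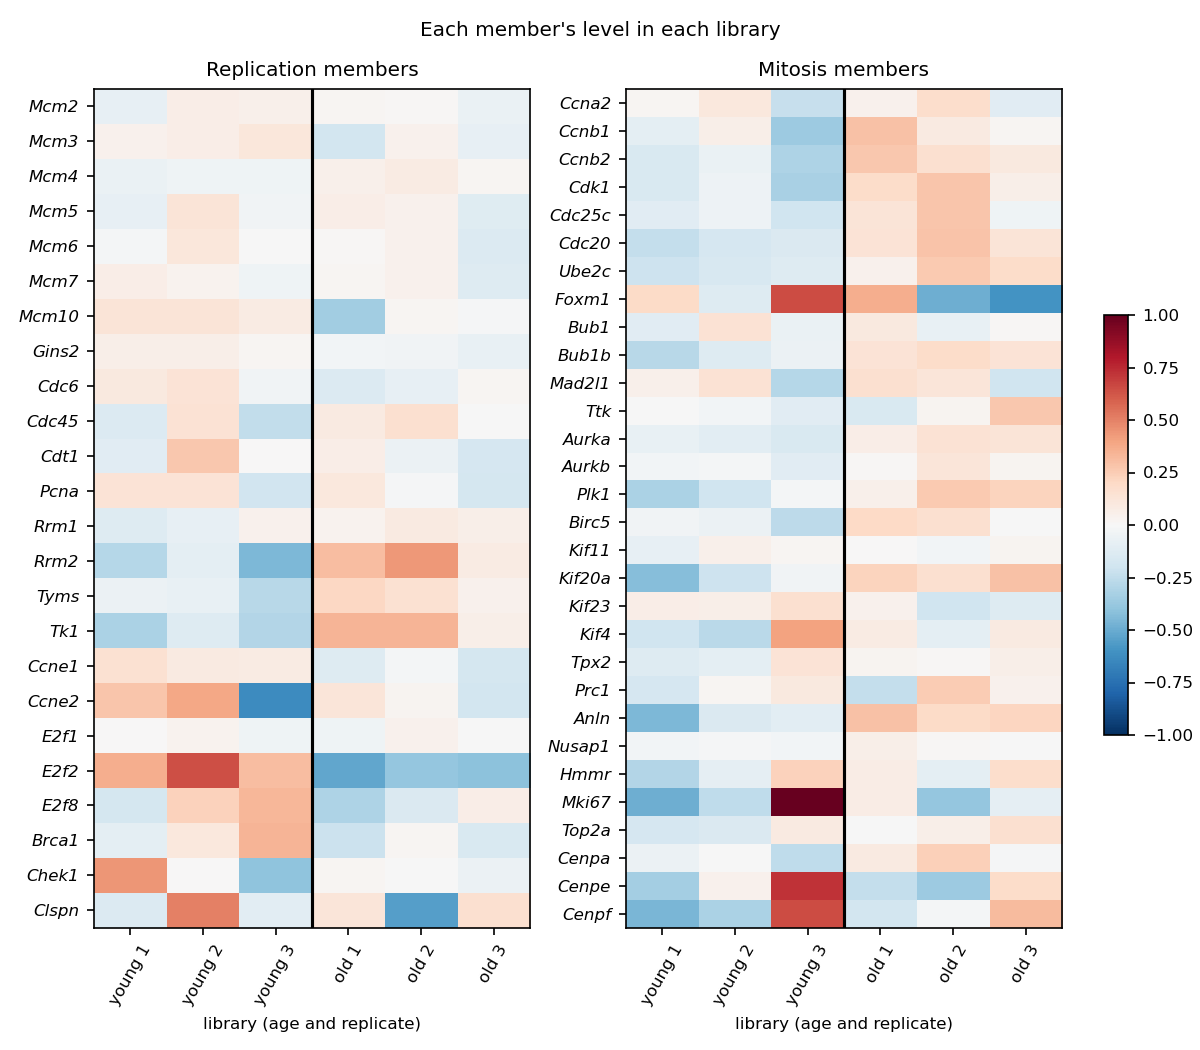
Log2 CPM of each member in each library minus its mean over the 6 libraries (colour, capped at 1 in size), young libraries left of the line and old libraries right. Rrm2, Tk1, Cdc20 and Anln change colour at the line, Mcm2 to Mcm7 are pale throughout, and Mki67, Cenpe and Cenpf stand out in young replicate 3 only.

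The small changes of replication and mitotic members leaned in different directions. These are counts of members, which are not replicates. The sign changed under at least 1 alternative in 19 members, among them Mcm5 and Pcna of the replication class and Ccna2 and Kif11 of the mitotic class. Of 24 replication members, 7 had a positive log2 fold change (29.2%, median -0.07), and of 30 mitotic members 26 did (86.7%, median 0.11). Omitting young replicate 2 gave a replication median of -0.01, omitting old replicate 3 gave 0.00, and omitting young replicate 3 gave -0.11. The mitotic median was 0.18 when young replicate 3 was omitted and 0.17 when old replicate 1 was. Over all genes tested, 48.5% were positive, with a median of -0.01. Ranges that did not overlap, with old above young, occurred in 4 of 24 replication members (16.7%) and 13 of 30 mitotic ones (43.3%), where the background was 15.9%. Old below young occurred in 4 (16.7%) and 1 (3.33%), where the background was 14.3%. In either direction 22 of the 54 members had ranges apart, 40.7%, and the background was 30.2%.

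The sum of the 30 mitotic members was 1769, 1886 and 1889 CPM in young replicates 1 to 3 and 2125, 2153 and 2074 CPM in old replicates 1 to 3, a 1.15-fold difference of the means without overlap. The sum of the 24 replication members was 2014, 2147 and 1996 CPM in the young and 2185, 2245 and 2043 CPM in the old libraries, which overlapped. The balance within a library does not depend on its scaling. The mean log2 CPM of replication members minus that of mitotic members was 0.07, 0.10 and -0.18 in young replicates 1 to 3 and -0.18, -0.13 and -0.20 in old replicates 1 to 3. Young replicate 3 therefore lay inside the old range, and the other young libraries above it. The fitted difference between the classes' mean log2 fold changes was -0.16. On leaving out each library in turn, this difference ran from -0.26 (without young replicate 3) to -0.11 (without another young library). It was -0.13 without young replicate 1. It is given as a description and has no test, since members are not replicates.

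**Figure D5:**
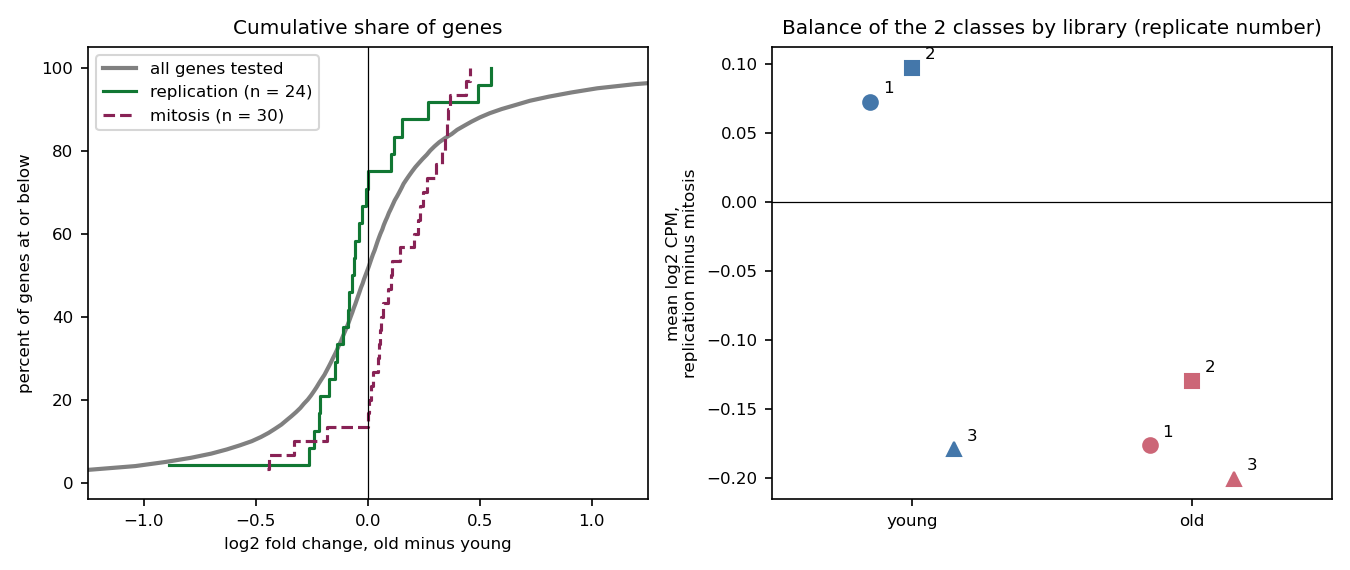
Left, cumulative percent of genes (y axis) by log2 fold change (x axis) for all 15567 genes tested, the 24 replication members and the 30 mitotic members. The replication curve reaches its middle at -0.07 and the mitotic curve at 0.11, and the curves cross at both ends. Right, mean log2 CPM of replication members minus that of mitotic members in each library, labelled by replicate, where young replicates 1 and 2 are above 0 and the other 4 libraries lie between -0.20 and -0.13.

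A further 176 genes of the same machinery held 4 genes called higher and 3 called lower, 3.98% of them against 10.5% of all genes, with a median log2 fold change of 0.04. None was called by edgeR among 12 origin licensing and firing genes, 26 polymerase and fork genes, 13 genes of nucleotide supply and chromatin assembly, 10 of recombination and fork repair, 19 of cohesin, condensin and separase, or 15 of the anaphase-promoting complex. At an unadjusted p under 0.05 those lists held 0, 1, 3, 4, 1 and 0 genes. The nearest to a call in them was Fancd2, a fork repair gene (8.20 to 10.4 CPM in young, 12.4 to 15.9 CPM in old libraries, adjusted p = 0.0548, edgeR). The median log2 fold change was 0.17 for 25 kinetochore genes and 0.14 for 28 further spindle and cytokinesis genes, with 21 and 24 of them positive, and 0.06 for cohesin, condensin and separase and 0.03 for the anaphase-promoting complex. It was -0.05 for licensing, -0.01 for the polymerase list, -0.08 for nucleotide supply and chromatin assembly and 0.04 for recombination and fork repair, where 6 of 10 were positive.

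In the kinetochore and spindle lists 1 gene each was called. Spc25, a subunit of the NDC80 complex that grips microtubules, had 20.1, 24.5 and 20.8 CPM in the young and 28.2, 52.0 and 46.9 CPM in the old libraries (log2 0.96, adjusted p = 0.0387, edgeR), and of the 6 single-library omissions only that of old replicate 1 kept the call (adjusted p in the others up to 0.134). The Spc25 call was also lost with limma-voom on all libraries (adjusted p = 0.0632). Ckap2, a spindle-associated protein, had log2 0.39 (adjusted p = 0.0499, edgeR), a call lost on omitting any library other than young replicate 3 (adjusted p as high as 0.168), with DESeq2 size factors, with the 50 most abundant genes left out of the scaling and without the low-count filter. A fit with a block for replicate number lost the Ckap2 call as well.

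Among the upstream regulators of G1, 2 of 21 cyclin, RB-family and E2F-partner genes and 3 of 7 CDK inhibitors were called (9.52% and 42.9%, against 10.5% of all genes). Ccnd2, a D-type cyclin that starts RB phosphorylation, had 719, 623 and 755 CPM in the young and 358, 386 and 410.0 CPM in the old libraries (log2 -0.86, SE 0.10, adjusted p = 0.00279, edgeR), and the call held without each single library. Tfdp2, an E2F partner, rose slightly (log2 0.44, adjusted p = 0.0433, edgeR), a call that was lost on leaving out any library but young replicate 3 (adjusted p up to 0.159) and without the low-count filter. A fit with a block for replicate number lost the Tfdp2 call as well. Of the CDK inhibitors, Cdkn1a (p21) fell from 405 ± 20.9 to 246 ± 8.91 CPM (log2 -0.72, adjusted p = 0.00189, edgeR), and Cdkn1c (p57) rose from 3.74, 6.05 and 11.5 CPM to 51.6, 45.1 and 44.5 CPM (log2 2.73, adjusted p = 0.00509, edgeR). The log2 fold change of Cdkn1c was 2.42 to 3.26 on leaving out 1 library, and 30.7% of its exon length is shared with Gm44732. Cdkn2b (p15) fell (log2 -0.58, adjusted p = 0.0468, edgeR), a call lost without young replicate 1 or any old replicate (adjusted p up to 0.174).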

How the data were processed

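The authors deposited whole-number counts of reads per Ensembl gene for 6 libraries. Per the labels' protocols, RNA of a fixed number of cells was amplified with a low-input kit and sequenced as read pairs, and trimming and alignment used, per the submitters' processing notes, Trim Galore 0.50, STAR 2.6.1a, HISAT2 2.1.0 and StringTie 1.3.4d on mm10. How reads were assigned to genes (tool, annotation, strand) is not given in the sources used here. The counts are of reads, which need not be independent molecules.

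Symbols matched 37607 of 39017 identifiers. Positions and exon lengths came from GENCODE M21 (GRCm38), and promoter windows from RefSeq (GRCm38.p6). Windows of Mcm4, Gins2, Ccne2, Ccna2, Cdc25c, Foxm1, Aurkb, Kif20a and Tpx2 were not used here. Counts were fitted across all genes in R 4.3.3 with edgeR 4.0.16 (filterByExpr, TMM, robust quasi-likelihood test, Benjamini-Hochberg adjustment, threshold 0.05), without a replicate block. The procedure was tested on simulated data. Class means used log2(CPM + 0.5). Within each age, no pair of libraries matched within sampling noise. Alternatives used DESeq2 1.42.0, limma 3.58.1, other scalings and filters, a block, and leaving out each library.

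Members and lists were chosen with earlier results of these data known. Values in all 6 libraries are given for called members, the most abundant member of a role without a call, and members whose call changes without 1 library. Other members named by library were chosen after their values were seen, and at most 3 genes are named per further list.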

Additional observations from a re-analysis of the deposited data

How the results depend on the processing

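The number of members called was 6 in 5 of the 9 alternatives that keep all libraries (limma-voom, the non-robust fit, and scaling by DESeq2 size factors, by upper quartiles or with the 50 most abundant genes left out), 5 without the low-count filter, where Kif20a was lost (adjusted p = 0.0546), and 7 with at least 50 counts in 3 libraries, which added Ube2c. The DESeq2 test called 11 members, 8 of them mitotic and higher, adding Ccnb2, Cdk1, Ube2c, Bub1b and Plk1 to the 6, with 15.9% of all genes called. Same-numbered young and old libraries had correlated deviations of 0.11, 0.03 and 0.14, and differently numbered ones -0.15 to 0.06. Each old library correlated best with the young library of its own number. These small values do not settle whether the numbers pair the libraries, and the main fit used no block. With a replicate block 3 members were called (Rrm2, Tk1 and E2f2), and 0 mitotic ones. Leaving out 1 library gave 1 to 9 members called, 0 to 2 replication members higher and 0 to 6 mitotic members higher. The 9 came without young replicate 3, where 16.5% of all genes were called, against 4.58% without old replicate 1. No called member changed sign. In 19 members that were called under neither setting the sign of the log2 fold change differed under at least 1 alternative. With 3 libraries per age, an exact permutation test of 1 value cannot go below p = 0.1.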

Other observations

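The deviations of young replicate 3 from the other young libraries were positively correlated with annotated exon length. Across the 54 members, which share that library, its log2 deviation from the mean of the other young libraries had a Spearman correlation of 0.39 with exon length, and across 15360 tested genes one of 0.18. Mki67, with 10061 bases of exon, deviated by 1.47, Cenpf (15433 bases) by 1.00 and Cenpe (8620 bases) by 0.84, while Mad2l1 (8390 bases) deviated by -0.38 and Ccne2 (3495 bases) by -0.95. The median deviation was -0.11 for genes with up to 1500 bases of exon and 0.12 for those over 8000 bases, and 0.24 for the 9 members over 8000 bases. The same correlation across members was -0.05, -0.31 and 0.34 in old replicates 1 to 3. Deviations within an age sum to 0 for each gene, so the values of libraries of one age are not independent. The part of this in the members' changes with age was not tested. The pattern was chosen after the values were seen.

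Foxm1 varied between libraries of each age more than Cdc20 or Plk1, genes of the mitotic programme it is known to activate. It ran from 28.9 to 49.7 CPM in young and from 21.0 to 40.8 CPM in old libraries. Cdc20 ran from 104 to 111 CPM and from 134 to 149.6 CPM, and Plk1 from 94.7 to 116 CPM and from 122 to 141 CPM. Other mitotic members were not as steady as Cdc20 and Plk1. The log2 deviation of young replicate 3 from the other young libraries was 0.61 for Foxm1, 1.47 for Mki67 and 1.00 for Cenpf. These genes were chosen after the values were seen.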
